A study of Mus musculus with 24 samples.

Results

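The genes described here encode the proteins of the mitochondrial ribosome, and were measured by bulk RNA sequencing of mouse heart. They were taken as every gene of the deposited annotation whose symbol begins with Mrpl or Mrps and a digit, leaving out symbols of pseudogenes, which gave 77 of 20961 genes. Of these, 48 carry Mrpl symbols and 29 carry Mrps symbols, and they lie on 17 chromosomes. They were taken by symbol and not by value, although earlier results of these data were known when the group was chosen. The hearts came from wild-type mice of both sexes and of 3 inbred strains (NZO/HlLtJ, CAST/EiJ, and the reference strain C57BL/6J), which ate a diet of 44% or 10% fat, each with fiber, from week 6 of age until collection at week 15. The protocol speaks of a high fat, high sugar diet and a control diet. There were 24 libraries of polyadenylated RNA in 12 groups of strain, sex and diet, with 2 in each, so every strain had 8 libraries and every diet within a strain had 4. NZO/HlLtJ is a strain known for obesity and diabetes, CAST/EiJ is a wild-derived strain of another subspecies, and the mouse reference genome was made from C57BL/6J.

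Mitochondria keep a small genome whose protein-coding genes all specify subunits of the respiratory chain and ATP synthase, and the mitochondrial ribosome translates them. Its ribosomal RNAs come from the mitochondrial genome, while every protein of it is made from nuclear genes in the cytosol and imported. Some of these proteins have homologues in the bacterial ribosome, and others were added during the evolution of mitochondria. Heart muscle depends on respiration, and in humans mutations in several of these genes, MRPL3, MRPL44 and MRPS22 among them, cause cardiomyopathy.

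Of the 77 genes, 30 encode large subunit proteins with a bacterial homologue, 20 encode large subunit proteins found only in mitochondria, 16 encode small subunit proteins with a bacterial homologue and 10 encode small subunit proteins found only in mitochondria. Mrps30 and Mrps18a are among the large subunit proteins despite their symbols. Mrps18a and Mrps18b are related to a bacterial protein but were counted here among those found only in mitochondria. The remaining gene, Mrps36, was named as a ribosomal protein, but its product is now known as a component of the 2-oxoglutarate dehydrogenase complex.

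Total counts per library ran from 30205073 to 52254040, and genes encoded by the mitochondrial genome took 20.2% to 28.8% of them. All 77 genes were among the 17203 that passed the filter on low counts. The 10 cardiomyocyte markers summed to 58956 to 73002 CPM, the count of a gene scaled to the size of its library, in NZO/HlLtJ, 59147 to 71342 CPM in CAST/EiJ and 62816 to 68214 CPM in C57BL/6J, so the defining markers of heart muscle were present and their ranges overlapped between strains. In a bulk sample, fewer cells of a type and less RNA per cell cannot be told apart. Whether both libraries of a group are from different mice is not stated, so the p-values speak only to the variation among libraries, which may be technical.

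The promoters of these genes were searched for the sites of 4 kinds of factor known to act on nuclear genes for mitochondria. Of the 77 genes, 68 matched the RefSeq promoter table for GRCm38.p6, which holds 250 bases before and 50 after each start. NRF1 is a factor known to drive nuclear genes for mitochondria, and a consensus of it with an open base occurred on either strand in 13 of the 68, or 19.1%, against 5.19% of all genes and 4.603% of all promoters in the table. CCGGAAGT, the core of ETS family sites, occurred in 12, or 17.6%, against 4.31% of all genes and 3.89% of all promoters. AAGATGGCG, the site of YY1, occurred in 8, or 11.8%, against 1.64% of all genes and 1.403% of all promoters. TCAAGGTCA, the site of the oestrogen-related receptors, occurred in none of the 68 and in 0.466% of all genes and 0.423% of all promoters. No limit to protein-coding or expressed genes was set on the 27025 genes of that table, so they are not a background matched to the members. A match is a description of the letters and does not show binding.

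The promoters shown are those of Mrpl3 and Mrps26, which were higher in CAST/EiJ, and of Mrpl39 and Mrpl42, which were lower there, with each motif in capitals. Each reads 5′ to 3′ on the gene's own strand from the C57BL/6J reference sequence, and its last 50 bases follow the start of transcription. They are Mrpl3 at chr9:105053018-105053317 on the plus strand, Mrps26 at chr2:130563507-130563806 on the plus strand, Mrpl39 at chr16:84735195-84735494 on the minus strand and Mrpl42 at chr10:95501900-95502199 on the minus strand.
Mrpl3: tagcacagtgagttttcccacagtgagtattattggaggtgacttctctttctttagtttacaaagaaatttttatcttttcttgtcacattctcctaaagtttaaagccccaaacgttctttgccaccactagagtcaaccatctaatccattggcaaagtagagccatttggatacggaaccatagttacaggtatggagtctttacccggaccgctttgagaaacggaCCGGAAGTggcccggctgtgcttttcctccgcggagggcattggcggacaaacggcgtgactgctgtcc
Mrps26: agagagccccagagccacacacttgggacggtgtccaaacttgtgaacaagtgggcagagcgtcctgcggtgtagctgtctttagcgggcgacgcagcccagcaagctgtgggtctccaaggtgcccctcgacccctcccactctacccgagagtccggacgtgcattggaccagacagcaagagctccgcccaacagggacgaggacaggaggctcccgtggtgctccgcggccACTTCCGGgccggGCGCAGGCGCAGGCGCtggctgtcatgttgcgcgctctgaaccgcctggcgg
Mrpl39: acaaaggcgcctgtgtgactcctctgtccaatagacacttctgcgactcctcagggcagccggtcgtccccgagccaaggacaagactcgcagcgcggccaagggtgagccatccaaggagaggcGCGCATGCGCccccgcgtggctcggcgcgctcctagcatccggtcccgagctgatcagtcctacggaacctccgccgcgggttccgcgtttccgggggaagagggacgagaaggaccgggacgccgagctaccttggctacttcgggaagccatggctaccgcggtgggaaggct
Mrpl42: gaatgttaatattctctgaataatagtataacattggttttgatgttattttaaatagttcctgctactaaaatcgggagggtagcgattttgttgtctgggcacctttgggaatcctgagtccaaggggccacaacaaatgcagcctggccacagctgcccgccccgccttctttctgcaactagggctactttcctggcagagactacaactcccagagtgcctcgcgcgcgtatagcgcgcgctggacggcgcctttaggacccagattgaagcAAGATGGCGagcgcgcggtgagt
The Mrpl3 promoter holds an ETS motif, and the Mrps26 promoter holds an ETS motif on the other strand followed by 2 NRF1 motifs that overlap. Mrpl39 has a single NRF1 motif and Mrpl42 a YY1 motif just after the start. Of these, the NRF1 motif stands both in a gene that was higher and in one that was lower in CAST/EiJ.

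Members often share a start region with another gene. A protein-coding neighbour on the opposite strand began within 1000 bases of 33 of the 77 members, or 42.9%, against 13.98% of the 15897 protein-coding genes in the table.

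The summed level of the 77 genes was 2458 ± 81.1 CPM in NZO/HlLtJ, 2796 ± 169 CPM in CAST/EiJ and 2544 ± 77.3 CPM in C57BL/6J (SD, n = 8 each). The lowest, median and highest libraries were at 2353, 2444 and 2624 CPM in NZO/HlLtJ, at 2507, 2819 and 3029.9 CPM in CAST/EiJ, and at 2403, 2545 and 2662 CPM in C57BL/6J. CAST/EiJ libraries were the highest on average, and the ranges of all 3 strains overlapped. The 29 Mrps genes summed to 889 to 1081 CPM in CAST/EiJ, against 802 to 890 CPM in C57BL/6J, so that those ranges overlapped at their edge. The ends of the CAST/EiJ range were set by libraries that stood apart in cell markers. CAST/EiJ F 44% replicate 1, the lowest, had endothelial markers summing to 1153 CPM, against 742 to 914 CPM in the other CAST/EiJ libraries. CAST/EiJ M 10% replicate 1, the highest, had brown adipocyte markers summing to 381 CPM, against 153 to 215 CPM in the others. Without both, the 77 genes summed to 2614 to 2956 CPM in CAST/EiJ, which still overlapped the other strains, and the Mrps genes to 943 to 1057 CPM, which did not overlap C57BL/6J. The part of these cells in the sums was not tested.

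**Figure D1:**
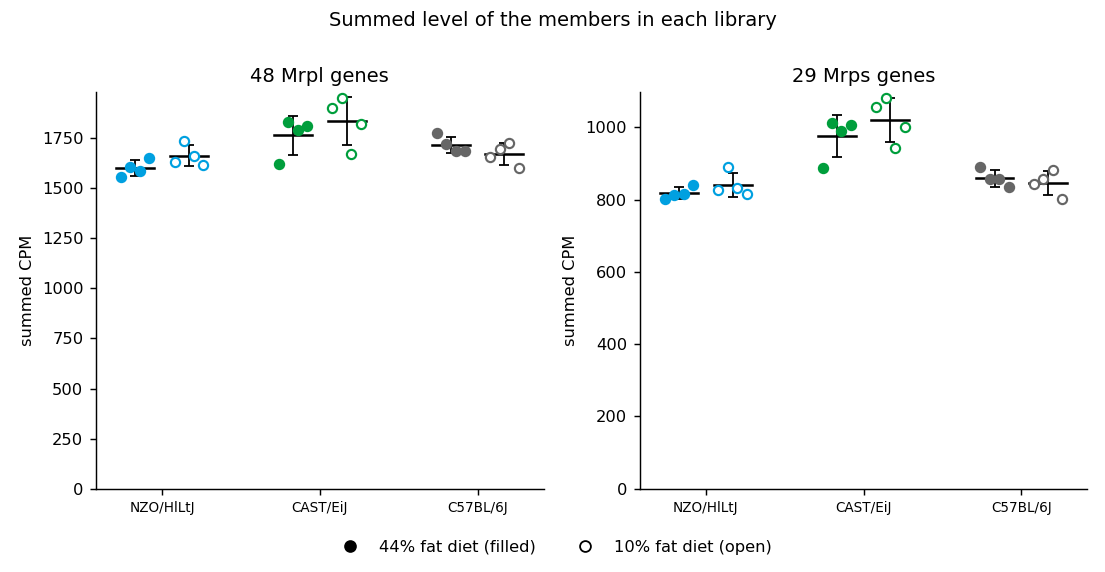
Summed CPM of the 48 Mrpl genes (left) and the 29 Mrps genes (right) in each of 24 libraries, by strain on the x axis, with 44% fat diet as filled points left of 10% fat diet as open points. Bars are mean ± SD of 4 libraries. CAST/EiJ lies highest on average in both panels and overlaps the other strains.

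Per length of exons, the members differed widely in level. The length was that of all annotated exons of a gene joined, so these values depend on the annotation as well as on the counts. It was 4883 bases for Mrpl23, against 692 bases for a transcript of that gene. For Mrps10 it was 8079 bases and for Mrps21 739 bases. The order at the top differed by strain. Mrps21, a homologue of bacterial S21, was the highest in NZO/HlLtJ and C57BL/6J, with means of 56.0 and 63.4 CPM per kb, and was at 48.5 CPM per kb in CAST/EiJ. Mrps23, a small subunit protein found only in mitochondria, was the highest in CAST/EiJ at 68.8 CPM per kb, and was at 48.4 CPM per kb in NZO/HlLtJ and 54.4 CPM per kb in C57BL/6J. Mrpl23 was the lowest in NZO/HlLtJ and C57BL/6J, at 0.37 and 0.44 CPM per kb, values that depend on a pseudogene copy described with that gene, and was at 4.21 CPM per kb in CAST/EiJ. There Mrps10 was the lowest at 1.78 CPM per kb. Strain accounted for most of the spread: it held a median of 76.5% of the variance of log2 CPM in the 77 genes, against 56.3% in all genes of at least 5 CPM. Diet held a median of 0.633% and sex 0.666% in the members, against 1.13% and 1.10% in those genes. Mrpl37, Mrpl18 and Mrpl44 had the smallest spreads among members of mean 5 CPM or more, with an SD of 0.07, 0.09 and 0.09 log2 CPM over 24 libraries, and Mrpl23, Mrpl34 and Mrpl3 the largest, at 1.71, 0.58 and 0.57.

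The strain comparisons ask which of these genes differ between hearts of the 3 strains. With edgeR's quasi-likelihood test and Benjamini-Hochberg adjustment over all 17203 genes, a gene was called at an adjusted p under 0.05. In CAST/EiJ against C57BL/6J, 54 members were called, or 70.1%, against 58.8% of all genes. Of these 38 were higher and 16 lower, or 49.4% and 20.8% of the 77, while 29.1% of all genes tested were higher and 29.7% lower. The median log2 change was 0.13 for the members and 0.00 for all genes. In NZO/HlLtJ against C57BL/6J, 28 members were called, or 36.4%, against 35.5% of all genes, and 9 were higher and 19 lower, against 17.9% and 17.6% of all genes, with a median of -0.06. In NZO/HlLtJ against CAST/EiJ, 60 were called, or 77.9%, against 60.3% of all genes, and 18 were higher and 42 lower, against 30.5% and 29.8% of all genes, with a median of -0.16. Each strain enters 2 of these contrasts, so they share libraries and are not independent of each other. The identifiers in the sample labels fall into 3 ranges, whose meaning is not given, and the first holds libraries of CAST/EiJ and C57BL/6J but none of NZO/HlLtJ, so the contrasts of NZO/HlLtJ are partly tied to the ranges. With the range as a block, 23 members were called in NZO/HlLtJ against C57BL/6J, 59 in NZO/HlLtJ against CAST/EiJ and 55 in CAST/EiJ against C57BL/6J.

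**Figure D2:**
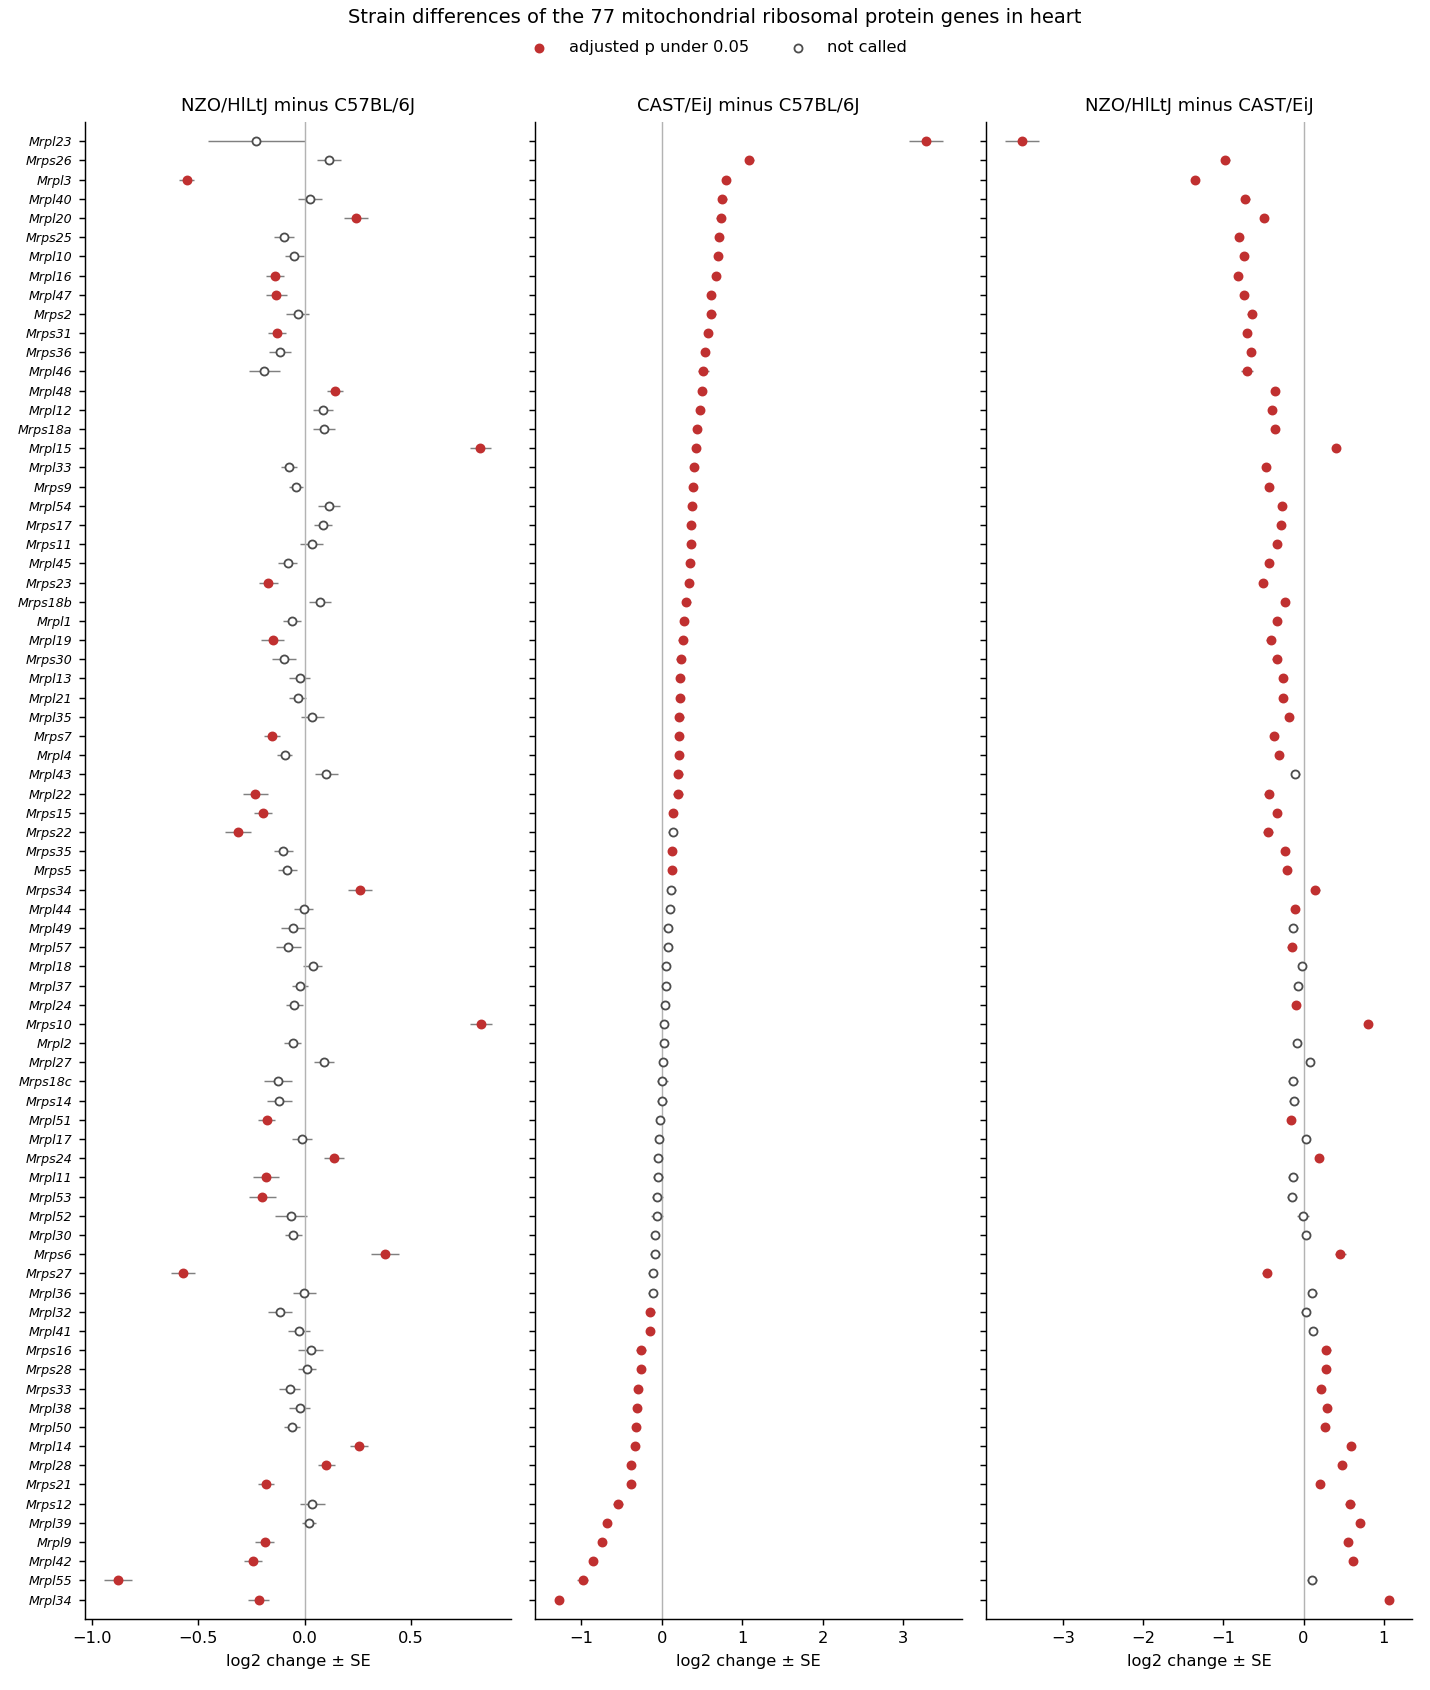
Log2 change with its SE for each of the 77 genes in the 3 strain contrasts, ordered by the change of CAST/EiJ minus C57BL/6J; filled red points had an adjusted p under 0.05 and open points did not. The x axes differ in range. In the middle panel 38 filled points lie right of 0 and 16 left of it, in the left panel 9 and 19, and in the right panel 18 and 42.

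By strain, 36 members, 46.8%, were called higher in CAST/EiJ than in each of the other strains, a pattern of 21.2% of all genes tested, and 13, or 16.9%, were called lower than in each, a pattern of 21.9%. NZO/HlLtJ was above both others in 7 members and below both in 12, or 9.09% and 15.6%, against 9.99% and 9.06% of all genes. C57BL/6J was above both in 5 and below both in 3, or 6.49% and 3.9%, against 8.74% and 8.32% of all genes. Mrpl2, Mrpl18, Mrpl37 and Mrps14, all homologues of bacterial proteins apart from Mrpl37, were among 11 members called in none of the 3 contrasts, or 14.3%, against 24.7% of all genes.

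All 8 CAST/EiJ libraries were above all 8 C57BL/6J libraries in 24 members, where 13.2% of all genes showed this, and below them in 12, where 13.8% did. All NZO/HlLtJ libraries were above all C57BL/6J libraries in 4 members, against 6.18% of genes, and below them in 4, against 6.06%. All NZO/HlLtJ libraries were above all CAST/EiJ libraries in 12, against 14% of genes, and below them in 29, against 12.8%. A called change of at least 1 on the log2 scale was seen in 3 members in CAST/EiJ against C57BL/6J, against 16.3% of all genes, in 3 in NZO/HlLtJ against CAST/EiJ, against 17% of all genes, and in 0 members in NZO/HlLtJ against C57BL/6J, against 7.06% of all genes. Mrpl23 was 1 of the 3 in both contrasts of CAST/EiJ, and its change turned sign when a pseudogene copy was counted with it.

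Both subunits held genes that were higher and genes that were lower. In CAST/EiJ against C57BL/6J, 16 of the 30 large subunit genes with a bacterial homologue were higher and 6 lower, and 8 of the 20 found only in mitochondria were higher and 5 lower. Among small subunit genes, 7 of the 16 with a bacterial homologue were higher and 4 lower, and 6 of the 10 found only in mitochondria were higher and 1, Mrps33, lower. In NZO/HlLtJ against C57BL/6J the same groups had 4 higher and 9 lower, 1 and 3, 3 and 3, and 1 and 4. Among all genes tested, 29.1% were higher and 29.7% lower in the CAST/EiJ contrast, and 17.9% and 17.6% in the NZO/HlLtJ contrast. The groups are small, and differences between them were not tested. Group medians in CAST/EiJ against C57BL/6J were 0.21, 0.07, 0.02 and 0.22 on the log2 scale, in the same order.

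Mrpl3 encodes the homologue of bacterial L3, a core protein of the large subunit (ENSMUSG00000032563, chr9:105053239-105079888, plus strand, GRCm38). It was at 46.4, 47.7 and 50.4 CPM as the lowest, median and highest library of NZO/HlLtJ, at 108, 124 and 132 CPM in CAST/EiJ, and at 64.7, 70.2 and 78.4 CPM in C57BL/6J. The 3 strains did not overlap. The log2 change was -1.35 (SE 0.04, adjusted p = 1.87e-16) in NZO/HlLtJ against CAST/EiJ, 0.80 (SE 0.03, adjusted p = 3.62e-13) in CAST/EiJ against C57BL/6J and -0.55 (SE 0.03, adjusted p = 3.1e-10) in NZO/HlLtJ against C57BL/6J, all by edgeR.

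Mrps26, a small subunit gene found only in mitochondria (ENSMUSG00000037740, chr2:130563742-130568695, plus strand), was higher in CAST/EiJ than in both other strains. It averaged 15.4 ± 1.03 CPM in NZO/HlLtJ, 30.3 ± 2.12 CPM in CAST/EiJ and 14.2 ± 0.93 CPM in C57BL/6J (SD, n = 8 each). The lowest CAST/EiJ library, at 27.8 CPM, stood above the highest of NZO/HlLtJ at 16.5 and of C57BL/6J at 14.998 CPM. The log2 change was 1.09 (SE 0.06) in CAST/EiJ against C57BL/6J, with an adjusted p of 5.72e-12 by edgeR.

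The next members in size were Mrpl40, Mrpl20, Mrps25, Mrpl10 and Mrpl16, with log2 changes of 0.68 to 0.75 in CAST/EiJ against C57BL/6J. Mrpl16, the homologue of bacterial L16 (chr19:11770415-11774944, plus strand), ran from 40.0 to 49.6 CPM in CAST/EiJ, against 27.7 to 32.2 CPM in C57BL/6J. Mrpl10, which anchors the stalk of the large subunit, ran from 48.01 to 66.4 CPM, against 30.2 to 38.1 CPM. Mrpl12, which forms the stalk with it, ran from 86.8 to 118 CPM, against 65.7 to 78.8 CPM. In each of these 3 genes every CAST/EiJ library was above every C57BL/6J library. The lowest Mrpl16 value in CAST/EiJ came from the library that also stood apart in its endothelial markers. Mrps25 shares 69.8% of its exonic length with Nr2c2 on the other strand, and since the handling of strand is not given in the sources used here, its reads and those of Nr2c2 may not be separate.

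Mrps18a, Mrps18b and Mrps18c are all related to bacterial S18, although Mrps18a and Mrps18b were counted above as found only in mitochondria. Of the 3, 2 were called higher in CAST/EiJ. Mrps18a, whose product sits in the large subunit, was higher in CAST/EiJ than in C57BL/6J by 0.44 (SE 0.05, adjusted p = 3.56e-07 by edgeR). Mrps18b, in the small subunit, was higher by 0.31 (adjusted p = 4.41e-05). Mrps18c, also in the small subunit, had a change of 0.01 (adjusted p = 0.945), and its sign turned in 9 of 35 other fits, with values from -0.06 to 0.06. Mrps18b shares 30.5% of its exonic length with Gm16279 on the other strand, and Mrps18c 23.2% with Gm43511 on the same strand. Their reads may not be separate. Mrps30 was higher by 0.24 (adjusted p = 0.00139), and Mrps36 by 0.54 (adjusted p = 3.14e-08), with 49.8 to 61.5 CPM in CAST/EiJ, against 35.3 to 40.8 CPM in C57BL/6J.

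Mrpl34, the homologue of the small bacterial protein L34, was lowest in CAST/EiJ (ENSMUSG00000034880, chr8:71464926-71465752, plus strand). It was at 23.6, 24.6 and 27.2 CPM as the lowest, median and highest library of NZO/HlLtJ, at 10.4, 11.8 and 13.7 CPM in CAST/EiJ, and at 26.2, 29.3 and 29.6 CPM in C57BL/6J. CAST/EiJ stood apart from both, and the other strains overlapped. The log2 change was -1.28 (SE 0.05, adjusted p = 6.58e-14) in CAST/EiJ against C57BL/6J, and -0.22 (SE 0.05, adjusted p = 0.00164) in NZO/HlLtJ against C57BL/6J, by edgeR.

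Mrpl42 and Mrpl39 are large subunit genes found only in mitochondria, and the product of Mrpl39 resembles a tRNA synthetase. Mrpl42 (chr10:95480806-95501927, minus strand) averaged 97.97 ± 7.12 CPM in NZO/HlLtJ, 64.1 ± 5.04 CPM in CAST/EiJ and 116 ± 4.88 CPM in C57BL/6J. Mrpl39 (chr16:84717576-84735742, minus strand) averaged 50.1 ± 1.82, 30.8 ± 1.16 and 49.3 ± 1.90 CPM in NZO/HlLtJ, CAST/EiJ and C57BL/6J (SD, n = 8 each). In CAST/EiJ against C57BL/6J, Mrpl42 changed by -0.85 (adjusted p = 4.4e-12) and Mrpl39 by -0.68 (adjusted p = 2.21e-12). Mrpl9 and Mrps12, homologues of bacterial L9 and of the decoding-centre protein S12, changed by -0.74 and -0.55 there. For these 4 genes the highest CAST/EiJ library was below the lowest C57BL/6J library.

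Mrpl55 (ENSMUSG00000036860, chr11:59202486-59206134, plus strand), the homologue of bacterial L31, was lower in both other strains than in C57BL/6J. It was at 16.8, 18.4 and 20.1 CPM as the lowest, median and highest library of NZO/HlLtJ, at 14.7, 16.6 and 20.9 CPM in CAST/EiJ, and at 30.6, 34.7 and 39.7 CPM in C57BL/6J. NZO/HlLtJ and CAST/EiJ overlapped and both stood below C57BL/6J. The log2 change was -0.88 (SE 0.06, adjusted p = 3.09e-09) in NZO/HlLtJ against C57BL/6J, -0.99 (SE 0.07, adjusted p = 1.85e-10) in CAST/EiJ against C57BL/6J, and 0.11 (SE 0.07, adjusted p = 0.161) in NZO/HlLtJ against CAST/EiJ, by edgeR.

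Mrps10 and Mrpl15 were highest in NZO/HlLtJ. Mrps10, the homologue of bacterial S10 (ENSMUSG00000034729, chr17:47368887-47381417, plus strand), was at 22.96 to 27.2 CPM in NZO/HlLtJ, against 12.3 to 15.5 CPM in CAST/EiJ and 12.9 to 17.3 CPM in C57BL/6J. Its log2 change was 0.83 (SE 0.05, adjusted p = 2.27e-10) against C57BL/6J and 0.80 (SE 0.05, adjusted p = 1.03e-10) against CAST/EiJ. Mrpl15, the homologue of bacterial L15 (ENSMUSG00000033845, chr1:4773206-4785739, minus strand), was at 59.4 to 71.0 CPM in NZO/HlLtJ, 42.3 to 57.1 CPM in CAST/EiJ and 34.9 to 38.7 CPM in C57BL/6J. No 2 strains overlapped in Mrpl15, and its log2 change in NZO/HlLtJ against C57BL/6J was 0.83 (SE 0.05, adjusted p = 8.13e-11) by edgeR.

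Other members differed less in NZO/HlLtJ. Mrps27, an RNA-binding protein of the small subunit, was at 17.5 to 22.9 CPM in NZO/HlLtJ, against 27.7 to 32.9 CPM in C57BL/6J, with a log2 change of -0.57 (SE 0.06, adjusted p = 2.13e-07). Mrps22 changed by -0.31 and Mrps6, a homologue of bacterial S6, by 0.38 (adjusted p = 0.000474 and 0.000124 by edgeR). Mrps27 shares 24.2% of its exonic length with 6430562O15Rik on the other strand. On the same strand, Mrps6 shares 19.9% with Gm49711 and Mrpl53 88.0% with Gm42688. The reads of these pairs may not be separate. The calls of Mrpl28, Mrps24 and Mrpl53 in this contrast were lost when single libraries were left out, with adjusted p up to 0.138, 0.0923 and 0.122 over all settings. The 8 fibroblast markers summed to 1464 to 1814 CPM in NZO/HlLtJ, 895 to 1233 CPM in CAST/EiJ and 1031 to 1128 CPM in C57BL/6J, none was at 0 in any library, and 7 of 8 were called higher against C57BL/6J and 8 of 8 against CAST/EiJ. The 6 skeletal muscle markers in the table summed to 2557 to 4824 CPM in NZO/HlLtJ, against 1331 to 1734 CPM in C57BL/6J. The mean of their log2 values was only 2.37 to 2.98 in C57BL/6J, so most of that sum came from few of them. Of 5 tested skeletal muscle markers 2 were called higher against C57BL/6J. The part of these cells in the changes of NZO/HlLtJ was not tested. In CAST/EiJ the smooth muscle and pericyte markers summed to 505 to 636 CPM, against 750 to 940 CPM in C57BL/6J, and 1 of 7 was higher and 3 lower. The 6 erythroid markers summed to 4315 to 21881 CPM in CAST/EiJ, with a median of 11625 CPM, against 2891 to 8772 CPM with a median of 5036 CPM in C57BL/6J, and 3 of 6 were higher. The 4 brown adipocyte markers summed to a median of 182 CPM in CAST/EiJ and 253 CPM in C57BL/6J, with overlapping ranges of 153 to 381 and 244 to 333 CPM. Of the 4, 1 was lower. This list holds Cox7a1, which is also a nuclear gene for oxidative phosphorylation, so its sum is not specific to brown adipocytes. The part of these cell types in the changes of CAST/EiJ was not tested either.

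**Figure D3:**
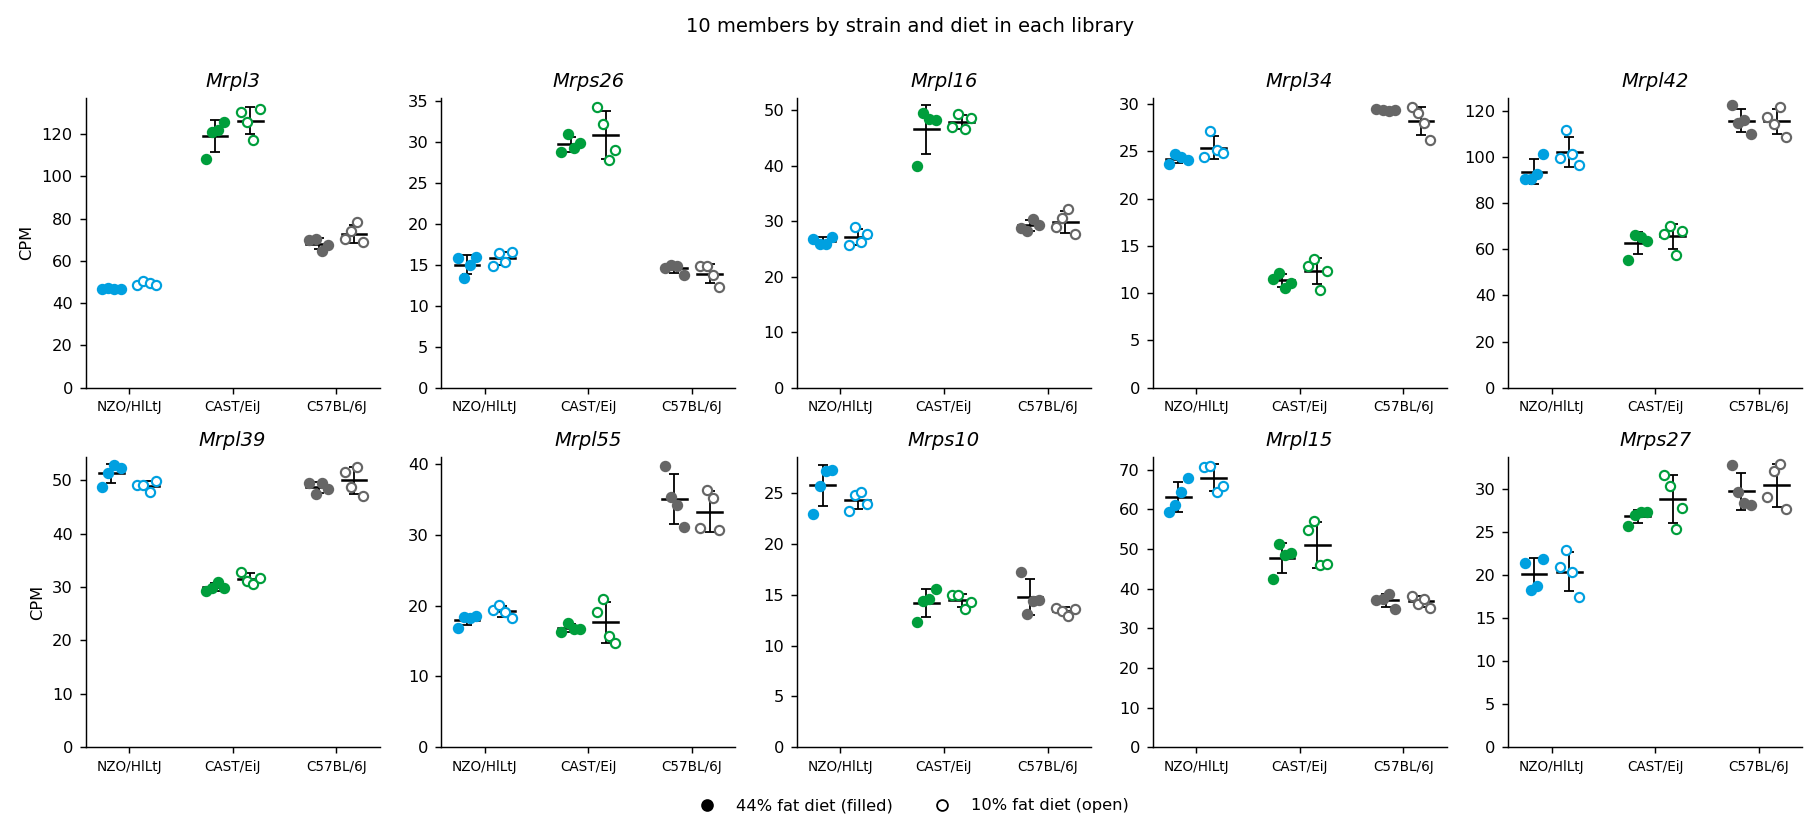
CPM of 10 named members in each of 24 libraries, by strain on the x axis, with 44% fat diet as filled points left of 10% fat diet as open points; bars are mean ± SD of 4 libraries and y axes start at 0. In each panel at least 1 strain stands apart from another, while the filled and open points of a strain mostly overlap.

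Mrpl23, whose bacterial homologue lines the exit of the protein tunnel, showed the largest change, which had the other sign when a copy of the gene was counted with it. It was at 19.3 to 22.5 CPM in CAST/EiJ, against 1.23 to 3.52 CPM in C57BL/6J, a log2 change of 3.29 (SE 0.21, adjusted p = 2.93e-09 by edgeR), and at 0.71 to 2.79 CPM in NZO/HlLtJ. The gene lies on chromosome 7 (ENSMUSG00000037772, chr7:142532799-142540747, plus strand), and its processed pseudogene Mrpl23-ps1 lies at chr2:74591330-74591909. In the GENCODE M21 transcripts the 2 sequences are identical over a run of 540 bases, which holds the whole coding sequence of 441 bases. The first 120 coding bases, with the start codon in capitals, stand in both and are printed because the same letters occur at both places.
Mrpl23: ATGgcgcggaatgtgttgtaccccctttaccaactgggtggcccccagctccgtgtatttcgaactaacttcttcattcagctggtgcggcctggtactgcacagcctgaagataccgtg
Mrpl23-ps1 was at 19.8 to 24.5 CPM in NZO/HlLtJ and 20.2 to 25.2 CPM in C57BL/6J. In CAST/EiJ it had 0 counts in 7 libraries and 9 counts in the other.

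Mrpl23 therefore held 99.0% to 100% of the counts of the pair in CAST/EiJ, against 3.29% to 12.1% in NZO/HlLtJ and 5.16% to 13.4% in C57BL/6J. Summed, the pair was at 21.7 to 26.2 CPM in NZO/HlLtJ, 19.3 to 22.5 CPM in CAST/EiJ and 22.8 to 27.1 CPM in C57BL/6J. With counts of members summed with those of their copies, an alternative chosen after seeing the data, the log2 change of Mrpl23 was -0.29 (adjusted p = 2.03e-05 by edgeR) in CAST/EiJ against C57BL/6J, so the direction turned. The change of Mrpl23 alone is therefore uncertain as a difference in its expression. A pseudogene copy of at least 95% identity over at least 200 bases was found for 19 of the 77 members, and 9 had one in the count table.

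**Figure D4:**
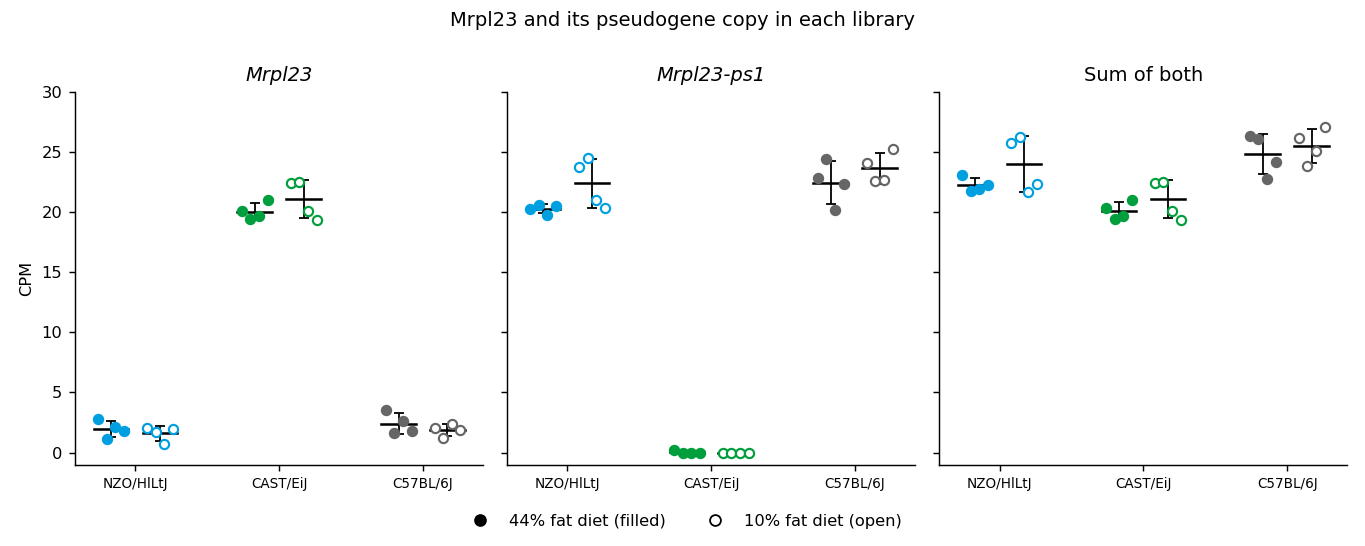
CPM of Mrpl23 (left), its pseudogene Mrpl23-ps1 (middle) and their sum (right) in each of 24 libraries, by strain on the x axis, with 44% fat diet filled and left of 10% fat diet; bars are mean ± SD of 4 libraries. Mrpl23 is high in CAST/EiJ only, Mrpl23-ps1 is near 0 there, and the sums of all 24 libraries lie between 19.3 and 27.1 CPM.

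Exons of 32 members share bases with another annotated gene. Leaving out these and the members with a pseudogene copy left 33 genes, of which 17 were higher and 8 lower in CAST/EiJ against C57BL/6J, or 51.5% and 24.2%, where 29.1% and 29.7% of all genes were. In NZO/HlLtJ against C57BL/6J 3 were higher and 8 lower, or 9.09% and 24.2%, where 17.9% and 17.6% of all genes were.

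Neighbours that share a start region did not always move together. Of 30 such pairs in which both genes were tested, 10 had both genes called in CAST/EiJ against C57BL/6J, 6 in the same direction and 4 in opposite directions. Mrpl46 and Mrps11, 2 members whose starts lie 412 bases apart, were both higher, by 0.52 and 0.36 on the log2 scale, although they share exonic bases. Mrps12 had a log2 change of -0.55, and Sars2, the mitochondrial seryl-tRNA synthetase gene that starts 172 bases away, one of 0.46 (adjusted p = 2.1e-07 and 2.02e-06 by edgeR). Mrpl47, the homologue of bacterial L29, had a change of 0.62 and Ndufb5, a complex I subunit gene, one of -0.11 (adjusted p = 2.53e-09 and 0.00533 by edgeR). Mrpl47 shares 13.9% of its exonic length with Ndufb5 on the other strand, so the reads of this pair may not be separate.

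Other genes that build or serve the mitochondrial ribosome also differed by strain in both directions. Of 26 assembly factor genes, 10 were higher and 8 lower in CAST/EiJ against C57BL/6J, or 38.5% and 30.8%, where 29.1% of all genes were higher and 29.7% lower. Among them Mterf3, needed for assembly of the large subunit, was at 33.6 ± 2.20 CPM in CAST/EiJ and 18.9 ± 1.10 CPM in C57BL/6J, and Spg7, a subunit of the protease that matures Mrpl32, was at 41.9 ± 4.17 CPM in CAST/EiJ and 67.8 ± 4.75 CPM in C57BL/6J (SD, n = 8 each). Of 15 translation factor genes, 2 were higher and 6 lower in that contrast, and the release factor gene Mtrf1 was at 3.18 ± 0.18 CPM in CAST/EiJ and 8.90 ± 1.06 CPM in C57BL/6J. Of 17 mitochondrial tRNA synthetase genes, 7 were higher and 4 lower in that contrast, and 3 higher and 6 lower in NZO/HlLtJ against C57BL/6J, where 17.9% and 17.6% of all genes were. Rars2, the arginyl synthetase, was at 5.86 ± 0.62 CPM in NZO/HlLtJ and 13.9 ± 1.38 CPM in C57BL/6J. Of 6 further ribosomal proteins without an Mrp symbol, 1 was higher and 1 lower in CAST/EiJ against C57BL/6J. Ict1, an integral member of the large subunit also called Mrpl58, had a log2 change of -0.02 (adjusted p = 0.814 by edgeR).

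Of the 83 nuclear genes for oxidative phosphorylation, 33 were higher and 18 lower in CAST/EiJ against C57BL/6J, with a median log2 change of 0.06, and 4 were higher and 33 lower in NZO/HlLtJ against C57BL/6J, with a median of -0.08. Of the 84 tested cytosolic ribosomal protein genes, many of which have near-identical copies, 26 were higher and 25 lower in CAST/EiJ and 1 was higher and 56 lower in NZO/HlLtJ, with medians of -0.02 and -0.14. Over all genes tested, 29.1% were higher and 29.7% lower in CAST/EiJ, and 17.9% and 17.6% in NZO/HlLtJ, each against C57BL/6J. In CAST/EiJ 49.4% of members were higher, against 39.8% and 31.0% of both lists in the order given, and the difference between lists was not tested.

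The ribosomal RNAs of the mitochondrial ribosome were lower in both other strains than in C57BL/6J. The small subunit RNA mt-Rnr1 was at 2665 ± 471 CPM in NZO/HlLtJ, 2147 ± 286 CPM in CAST/EiJ and 4108 ± 271 CPM in C57BL/6J, and the large subunit RNA mt-Rnr2 at 5440 ± 562, 3507 ± 328 and 9902 ± 665 CPM in the same order (SD, n = 8 each). In both RNAs all libraries of NZO/HlLtJ and of CAST/EiJ were below all of C57BL/6J, and both RNAs were called lower in each contrast. The libraries were made from polyadenylated RNA, so these values need not follow the amount of ribosomal RNA. Of 13 protein-coding genes of the mitochondrial genome, 1 was higher and 9 lower in CAST/EiJ against C57BL/6J, with a median of -0.45, and 0 were higher and 10 lower in NZO/HlLtJ, with a median of -0.27. The shares over all genes were 29.1% higher and 29.7% lower in CAST/EiJ, and 17.9% and 17.6% in NZO/HlLtJ. Among the 13 genes, mt-Co2 was at 18.2 to 29.5 CPM in CAST/EiJ, against 6212 to 10044 CPM in C57BL/6J. The aligner is not stated, and how reads of mt-Co2 were assigned in CAST/EiJ was not tested. This change is therefore uncertain as a difference in the expression of mt-Co2.

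The diet comparison asks how hearts on the 44% fat diet differ from those on the 10% fat diet. No member was called in any strain or over all strains, where the share of all genes called was 0.157% over all strains, 0% in both NZO/HlLtJ and CAST/EiJ and 0.0407% in C57BL/6J by edgeR. At an unadjusted p under 0.05 there were 8 members over all strains, or 10.4% against 8.81% of all genes. One was higher and 7 were lower, where 4.33% of all genes were higher and 4.48% lower. Within strains there were 1 in NZO/HlLtJ, 4 in CAST/EiJ and 5 in C57BL/6J, against 7.17%, 6.61% and 5.62% of all genes. DESeq2, limma-voom and limma on the authors' variance-stabilized values also called 0 members in each. The number of all genes called depended on the method. DESeq2 called 105 of 17203 over all strains, 13 in NZO/HlLtJ, 29 in CAST/EiJ and 38 in C57BL/6J.

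Mrpl3 had the smallest p over all strains, with a log2 change of -0.09 (SE 0.03, unadjusted p = 0.0073, adjusted p = 0.357 by edgeR). It was at 46.4 to 47.0 CPM in the 4 NZO/HlLtJ libraries on 44% fat and at 48.5 to 50.4 CPM in the 4 on 10% fat. In CAST/EiJ it was at 108 to 126 CPM on 44% fat and 117 to 132 CPM on 10% fat, and in C57BL/6J at 64.7 to 70.5 and 68.7 to 78.4 CPM. The diets overlapped in CAST/EiJ and C57BL/6J and did not overlap in NZO/HlLtJ.

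Mrps28 and Mrps7 followed, with changes of -0.10 and -0.08 (adjusted p = 0.396 and 0.418). Mrps7, a homologue of bacterial S7, was at 40.2 to 45.0 CPM on 44% fat and 45.3 to 50.1 CPM on 10% fat in CAST/EiJ, which did not overlap. In C57BL/6J it was at 37.5 to 43.8 and 36.6 to 42.6 CPM, which did. In C57BL/6J the smallest p belonged to Mrpl27, at 13.5 to 14.5 CPM on 44% fat and 11.4 to 13.5 CPM on 10% fat, which did not overlap, a log2 change of 0.20 (SE 0.07, adjusted p = 0.689).

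The members leaned in different directions between strains without a call. The log2 change was negative in 61 of 77 members in NZO/HlLtJ and 67 of 77 in CAST/EiJ, and positive in 55 of 77 in C57BL/6J, with medians of -0.06, -0.06 and 0.03; among all genes 47.9%, 47.6% and 48.9% were positive. The signs of 77 genes from the same libraries are not independent counts. Summed, the members were at 2415 ± 55.7 CPM on 44% fat and 2501 ± 85.5 CPM on 10% fat in NZO/HlLtJ, at 2736 ± 155 and 2855 ± 183 CPM in CAST/EiJ, and at 2573 ± 63.9 and 2515 ± 87.0 CPM in C57BL/6J (SD, n = 4 each), and the diets overlapped in each strain. Without 3 libraries that stood apart within their strain in a cell marker score, an alternative chosen after seeing the data, 38 of 77 were negative in CAST/EiJ and the median was 0.01. In CAST/EiJ the identifier ranges are partly tied to diet; with the range as a block, 73 of 77 were negative with a median of -0.10, and in the first range alone 75 of 77 with a median of -0.15. In NZO/HlLtJ diet and range coincide within each sex, in opposite ways in females and males, so no comparison within both a sex and a range could be made there; with the range as a block 61 of 77 were negative with a median of -0.06.

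Single libraries moved these medians by more than 1.5 times. In NZO/HlLtJ the median was -0.03, with 53 of 77 negative, without F 10% replicate 2. In C57BL/6J it was 0.0098, with 43 of 77 positive, without F 44% replicate 1, and 0.06, with 63 positive, without F 44% replicate 2. In CAST/EiJ it was -0.02 without F 10% replicate 1, -0.04 without F 44% replicate 1 and likewise -0.04 without M 10% replicate 1, and -0.11 without F 10% replicate 2 and -0.11 without F 44% replicate 2. Over all strains it was -0.03, and ran from -0.04 without CAST/EiJ F 10% replicate 2 to -0.0089 without CAST/EiJ F 10% replicate 1. The sign of the median held in each of these fits, but its size rests on few libraries.

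**Figure D5:**
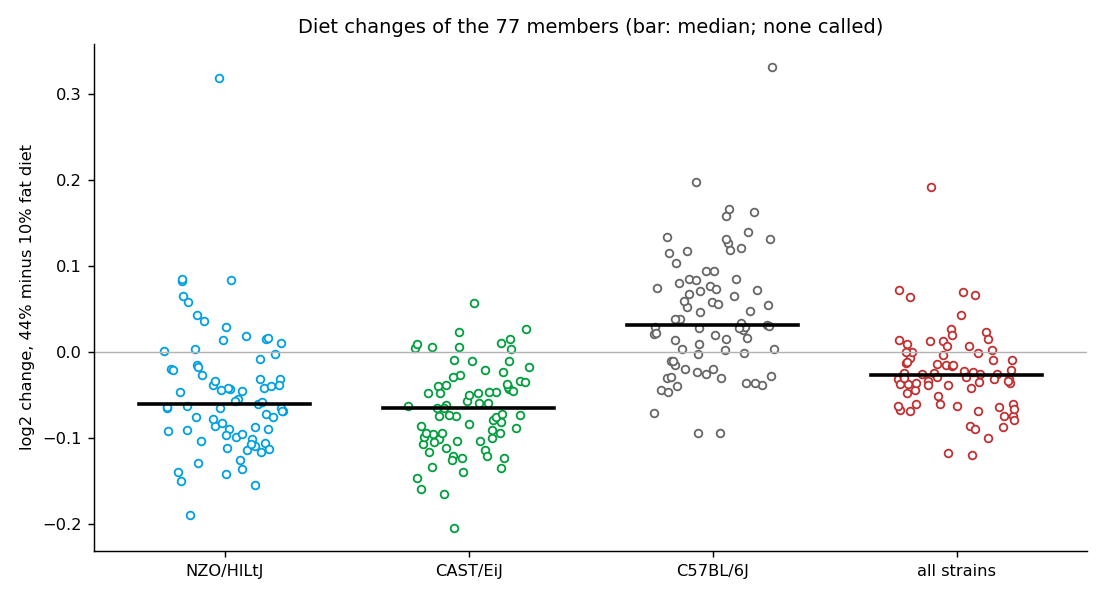
Log2 change of 44% minus 10% fat diet for each of the 77 members (points) in NZO/HlLtJ, CAST/EiJ, C57BL/6J and over all strains, with the median as a bar. Medians are -0.06, -0.06, 0.03 and -0.03, and no point had an adjusted p under 0.05.

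The difference of the diet change between strains was tested directly, and no member was called in any of the 3 strain pairs, where 1 of all genes, or 0.00581%, was called in NZO/HlLtJ against C57BL/6J, and 0% in the other 2. At an unadjusted p under 0.05 there were 5 members in NZO/HlLtJ against C57BL/6J, 8 in CAST/EiJ against C57BL/6J and 0 in NZO/HlLtJ against CAST/EiJ, where 4.75%, 6.53% and 4.64% of all genes passed, and DESeq2 and limma-voom called 0. Mrpl14, the homologue of bacterial L14, had the smallest p in the first 2, with differences of -0.25 and -0.24 (SE 0.08 each, adjusted p = 0.973 and 0.724 by edgeR). It was at 28.4 to 29.8 CPM on 44% fat and 30.1 to 32.7 CPM on 10% fat in NZO/HlLtJ, at 18.3 to 21.4 and 19.8 to 21.1 CPM in CAST/EiJ, and at 24.9 to 28.0 and 22.6 to 25.3 CPM in C57BL/6J.

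Between female and male hearts no member was called, against 0.372% of all genes by edgeR, and DESeq2 and limma-voom also called 0. At an unadjusted p under 0.05 there were 5 members, against 8.95% of all genes. All 5 were lower in females, where 4.12% of all genes were higher and 4.83% lower. Mrpl12 had the smallest p, with a log2 change of -0.11 (adjusted p = 0.349 by edgeR), and the median over the 77 genes was -0.02. That median ran from -0.04 without CAST/EiJ F 10% replicate 1 to -0.0027 without CAST/EiJ F 10% replicate 2, and was 0.02, with 30 of 77 negative, without the 3 libraries apart in a cell marker score, so no direction of the members by sex is given.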

How the data were processed

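RNA of 24 heart samples was sequenced, and the authors' deposited matrix holds estimated counts per gene on GRCm38, named without a version in the submitters' processing notes. The aligner, the counting program and strand handling are not stated in the labels or files. Of the deposited values 19.3% were not whole to within 1e-06, so all were rounded. The deposited variance-stabilized values on a log2 scale, made by the authors, were used as an alternative only. Genes passed the default filter of edgeR 4.0.16 (minimum count 10, minimum total 15) in R 4.3.3. CPM were scaled with trimmed-mean factors. A quasi-likelihood model with 12 group means gave all contrasts, each strain or sex contrast averaging over the other factors, with Benjamini-Hochberg adjustment over all genes. DESeq2 1.42.0 and limma 3.58.1 were alternatives. Pseudogene copies were found with BLAST+ 2.17.0. The code was checked on simulated counts. Named members were, per strain contrast, up to 8 called per direction of largest change with one sign in all sex and diet groups, and the 3 per direction of smallest adjusted p; per diet and sex contrast, the 3 per direction of smallest p; and from each other list up to 2 called of smallest adjusted p. The members and lists were chosen with earlier results of these data known. No library was left out, and no 2 libraries of a group were duplicates. Totals per library are given above and set the counting error.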

Additional observations from a re-analysis of the deposited data

Results flagged for a closer look

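In 8 of 150 strain groups of 8 libraries, 1 library lay far from the rest, where chance gives about 1 in 20. NZO/HlLtJ F 10% replicate 2 was highest in Mrpl34 at 27.2 CPM (others 23.6 to 25.1), in Mrpl40 at 15.7 CPM (others 13.2 to 14.3) and in Mrps21 at 46.7 CPM (others 38.3 to 41.8). NZO/HlLtJ M 10% replicate 2 was highest in Mrps30 at 29.6 CPM (others 22.1 to 25.5). CAST/EiJ F 44% replicate 1 was lowest in Mrpl16 at 40.0 CPM (others 46.7 to 49.6), and its endothelial markers summed to 1153 CPM, against 742 to 914 CPM in the other CAST/EiJ libraries. C57BL/6J F 44% replicate 1 was highest in Mrps10 at 17.3 CPM (others 12.9 to 14.4), and C57BL/6J M 44% replicate 2 in Mrps12 at 17.8 CPM (others 14.5 to 15.7). C57BL/6J F 10% replicate 2 was lowest in Mrps18c at 10.96 CPM (others 12.9 to 14.5). Its skeletal muscle score, a mean of log2 values, also stood apart at 2.98 (others 2.37 to 2.64). The sum of these markers did not, at 1426 CPM (others 1331 to 1734).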

How the results depend on the processing

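The number of members called ranged over the alternatives from 23 to 34 in NZO/HlLtJ against C57BL/6J (28 as reported), 46 to 56 in CAST/EiJ against C57BL/6J (54) and 58 to 64 in NZO/HlLtJ against CAST/EiJ (60). Leaving out each library gave 22 to 30, 52 to 56 and 57 to 66. For diet, its difference between strains and sex, 0 members were called in each of these fits. Summing members with their copies and leaving out libraries apart in a marker score were chosen after seeing the data. Of 58 called named strain results, 54 were called in every fit. These include both Mrpl23 results, which were called in the opposite direction with copies summed. Mrps30 in CAST/EiJ against C57BL/6J lost its call with the first identifier range alone. Signs turned in these cases, and the cause was not tested, apart from Mrpl23, where reads of the copy were added: Mrpl23 was -0.29 in CAST/EiJ against C57BL/6J and 0.16 in NZO/HlLtJ against CAST/EiJ with copies summed. Diet changes in CAST/EiJ with the identifier range as a block were -0.00132 for Mrpl4 and -0.000826 for Mrpl28, and with the first range alone -0.0113, -0.00753 and, for Mrps18a, -0.0719. Mrps18c in CAST/EiJ against C57BL/6J was -0.0626 with the first range alone and -0.0442 without the libraries apart. The diet effect in CAST/EiJ minus C57BL/6J was -0.0191 for Mrpl44 and -0.0248 for Mrpl54 with the block, and -0.14 for Mrpl44 in the first range. Leaving out each library gave -0.0257 to 0.0787 for Mrpl28 and -0.0348 to 0.0969 for Mrps18a (diet, CAST/EiJ), -0.0406 to 0.0572 for Mrps18c (strain), and -0.00307 to 0.0959 for Mrpl44 and -0.0250 to 0.128 for Mrpl54 (diet effect). No paired analysis was possible because the labels carry no replicate numbers, which were given here in accession order.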
